A study of Mus musculus with 2 samples.

Results

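The let-7 family of microRNAs (miRNAs) was followed in small RNA libraries from newborn mouse skeletal muscle. Its members were taken by gene symbol, from 10 named genes, and 9 of the 10 were among the 1973 miRNA genes counted in each library. The member that was not listed is Mirlet7f-1. The 2 libraries were made from total RNA of skeletal muscle of 2 littermates of strain B6NCrl at postnatal day 0, called replicate 2 (pup 2) and replicate 1 (pup 1). The labels do not name the muscle, and sex was not recorded. Both libraries belong to 1 group with no treatment, so there was no contrast between conditions, and a difference between pups cannot be told apart from one of dissection or library preparation.

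A let-7 miRNA is cut from a hairpin precursor, and the strand that is kept, for let-7 mostly the 5p arm, guides Argonaute to messenger RNAs that pair with its seed, bases 2 to 8. The family was found in worms as a timer of development, and in mammals it accumulates as cells leave the stem or progenitor state. The RNA-binding proteins Lin28a and Lin28b block the processing of let-7 precursors in early cells, and known mammalian targets include Hmga2, Ras genes and Lin28 itself. A mammalian genome carries many let-7 loci, some of which give exactly the same mature miRNA.

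All 10 genes had a 5p entry in RefSeq (GRCm38.p6), and together they encode 8 distinct mature sequences of 22 bases. These are shown so that the sequences encoded at several loci can be told from those encoded at 1. Each is written 5′ to 3′ with the seed in capitals.
let-7a-5p: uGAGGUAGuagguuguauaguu
let-7c-5p: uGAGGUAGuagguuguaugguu
let-7f-5p: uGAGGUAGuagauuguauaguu
let-7b-5p: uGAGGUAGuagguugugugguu
let-7d-5p: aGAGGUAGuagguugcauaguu
let-7g-5p: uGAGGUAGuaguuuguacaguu
let-7i-5p: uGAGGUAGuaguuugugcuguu
miR-98-5p: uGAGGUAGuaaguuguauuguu

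The seed was the same in all 8, and 15 of the 22 positions held the same base in every sequence. The 28 pairs differed by 1 to 6 substitutions. Of these, 3 pairs differed by 1 substitution, namely let-7a with let-7c, let-7a with let-7f, and let-7b with let-7c. The sequences let-7d, let-7g and miR-98 had no RefSeq mouse mature miRNA within 1 substitution of them, and let-7i had 1. The first 3 sequences in the list are each encoded at 2 loci in the GENCODE M21 miRNA genes (mm10), and the other 5 at 1 locus each. The genes Mirlet7a-1, Mirlet7c-1, Mirlet7c-2, Mirlet7f-1 and Mirlet7f-2 are therefore called multi-locus here, and Mirlet7b, Mirlet7d, Mirlet7g, Mirlet7i and Mir98 single-locus.

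Around the 5p arm the copies part close to the mature end. The stretches below start at the first base of the 5p miRNA and run for 26 bases into the loop, with the first base that differs between the 2 copies in capitals.
Mirlet7a-1: ugagguaguagguuguauaguuuUag
Mirlet7a-2: ugagguaguagguuguauaguuuAga
Mirlet7c-1: ugagguaguagguuguaugguuuAga
Mirlet7c-2: ugagguaguagguuguaugguuuUgg
Mirlet7f-1: ugagguaguagauuguauaguuGugg
Mirlet7f-2: ugagguaguagauuguauaguuUuag

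The let-7a copies and the let-7c copies were identical for 23 bases from that start, which is 1 base past the mature end. The let-7f copies were identical for 22 bases, the mature sequence alone, and their hairpins differed from the next base on. In all 3 pairs the base just before the mature sequence already differed. The 3p arms, the strand that is mostly discarded, also differed in how many loci encode them. The sequences below are shown with every base that differs from let-7a-1-3p, compared position by position from the 5′ end, in capitals.
let-7a-1-3p: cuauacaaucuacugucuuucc
let-7c-2-3p: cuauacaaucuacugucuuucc
let-7c-1-3p: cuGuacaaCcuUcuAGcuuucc
let-7f-2-3p: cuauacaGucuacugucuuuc

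Mirlet7a-1 and Mirlet7c-2 thus share their 3p sequence as well, so neither mature arm is particular to its locus. The 3p sequences of Mirlet7c-1 and Mirlet7f-2 were each found in 1 miRNA gene. The deposited tables give 1 count per gene, so the arm a read came from is unknown.

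Replicate 2 held 5133949 reads on the strand of a listed miRNA gene and replicate 1 held 3754895, and levels below are CPM, counts scaled to a total of 1000000 such reads per library. They are not divided by hairpin length, because a miRNA read covers the short mature RNA. Reads that map to several places were listed apart from the genes and made up 29.9% of all reads in replicate 2 and 30.2% in replicate 1. They were 2971792 reads in replicate 2 and 2156563 in replicate 1, which is 7.49 and 6.61 times the counts of the let-7 members. How many of them are let-7 reads is unknown. A read of only a mature sequence encoded at 2 loci fits both, so let-7a, let-7c and let-7f reads can be among them. The rows of multi-locus genes therefore need not hold the whole level of these miRNAs. The tissue label was checked on 7 striated muscle miRNA genes, all with counts in the libraries, which summed to 89351 CPM in replicate 2 and 81334 CPM in replicate 1, nearly all from Mir206 (83323 ± 5480 CPM, SD, n = 2). The muscle list includes Mir1a-1 and Mir133a-1, numbered copies whose rows leave out reads that map to several places. The part of Mir206 in the sum is thus one of counted reads only. Of 5 listed nerve genes, 4 (Mir9-2 and the 3 Mir124a genes) had 0 counts in both libraries. These genes are numbered copies, and reads that map to several places are not in their rows. The zeros therefore do not show whether nerve was present.

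The 9 listed members held 7.73% of gene counts in replicate 2 (95% interval 7.71 to 7.75, Clopper-Pearson, counting error only) and 8.68% in replicate 1 (8.65 to 8.71), a mean of 8.21% ± 0.675 (SD, n = 2). All 9 had at least 10 counts in both libraries. Mirlet7i and Mirlet7g alone made up 76.1% of the family's counts in replicate 2 and 76.2% in replicate 1. At the other end, the 4 multi-locus members together held 1.80% of the family's counts in replicate 2 and 2.12% in replicate 1. These are shares of the counted reads, which exclude reads that map to several places, and not of all let-7 RNA.

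**Figure D1:**
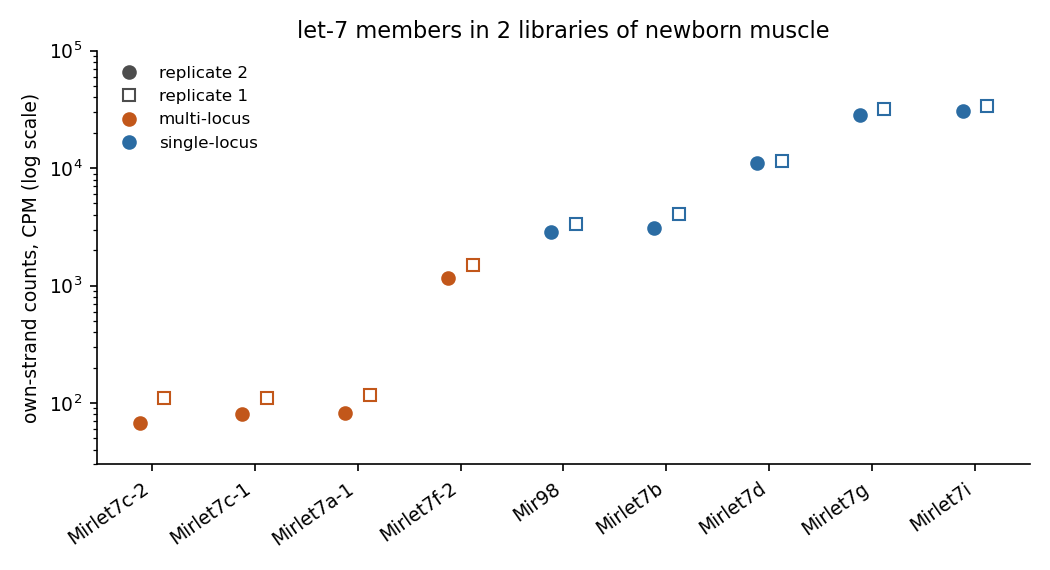
Level of each listed let-7 member, own-strand counts in CPM on a log axis, for replicate 2 (filled circles) and replicate 1 (open squares). All 4 multi-locus members (orange, at most 1507 CPM) lie below all 5 single-locus members (blue, at least 2886 CPM) in both libraries. Reads that map to several places are not included.

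The gene rows leave out reads that map to several places, and how much this takes from the multi-locus rows was not tested. In the counts given, the multi-locus members formed the lower end of the family. Mirlet7f-2, in an intron of the ubiquitin ligase gene Huwe1 on chromosome X from 151912346 to 151912428 (plus strand), led them with 5973 counts (1163 CPM) in replicate 2 and 5658 counts (1507 CPM) in replicate 1. Mirlet7a-1, on chromosome 13 from 48538179 to 48538272 (minus strand) in an exon of the long non-coding RNA gene 6720427I07Rik, had 421 counts (82.0 CPM) in replicate 2 and 442 counts (118 CPM) in replicate 1. Mirlet7f-2 thus stood 14.2-fold and 12.8-fold above Mirlet7a-1, the next member, in replicates 2 and 1.

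Both let-7c loci were at the bottom. Mirlet7c-1, in an intron of the non-coding gene Mir99ahg on chromosome 16 from 77599657 to 77599750 (plus strand), had 411 counts (80.1 CPM) in replicate 2 and 413 counts (110 CPM) in replicate 1. Mirlet7c-2, exonic in the non-coding gene Lncppara on chromosome 15 from 85706603 to 85706697 (plus strand), had 344 counts (67.0 CPM) in replicate 2 and 413 counts (110 CPM) in replicate 1. The order of Mirlet7a-1, Mirlet7c-1 and Mirlet7c-2 was not resolved, since the gaps between neighbouring means (4.84 and 6.53 CPM) were far below their SDs (21.2 to 30.4 CPM). Mirlet7a-2, the other let-7a locus, lies on chromosome 9 beside Mir100 and is not counted among the 9 members. It had 457 counts in replicate 2 and 468 in replicate 1, or 107 ± 25.2 CPM (SD, n = 2), so the let-7a and let-7c loci all lay near one another, from 88.5 to 107 CPM on average.

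Among the single-locus members, Mirlet7i was highest, as it was in the whole family. It lies on chromosome 10 from 122985640 to 122985724 (mm10, minus strand), in an exon of D630033A02Rik, annotated as a transcribed pseudogene. It had 156082 counts (30402 CPM) in replicate 2 and 128257 counts (34157 CPM) in replicate 1, the rank of 10 among listed genes in either library. Mirlet7g lies in an intron of Wdr82, a gene for a subunit of histone methyltransferase complexes, on chromosome 9 from 106178840 to 106178927 (plus strand). It had 145921 counts (28423 CPM) in replicate 2 and 120069 counts (31977 CPM) in replicate 1. Mirlet7i exceeded Mirlet7g 1.07-fold in each library, although the gap between their means (2080 CPM) was smaller than the sum of their SDs (5168 CPM). Their mature sequences differ by 2 substitutions and they lie on different chromosomes.

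Below them came Mirlet7d, on chromosome 13 from 48536012 to 48536114 (minus strand), also exonic in 6720427I07Rik. It had 57020 counts (11106 CPM) in replicate 2 and 42956 counts (11440 CPM) in replicate 1. Mirlet7g was 2.56-fold above it in replicate 2 and 2.80-fold above it in replicate 1, a gap beyond the summed SDs.

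Mirlet7b and Mir98 formed a lower pair. Mirlet7b, on chromosome 15 from 85707319 to 85707403 (plus strand) and also exonic in Lncppara, had 15828 counts (3083 CPM) in replicate 2 and 15230 counts (4056 CPM) in replicate 1. Mir98 is a let-7 member under another name, also in Huwe1, on chromosome X from 151913214 to 151913321 (plus strand). It had 14818 counts (2886 CPM) in replicate 2 and 12613 counts (3359 CPM) in replicate 1. Mirlet7b was the higher of the pair in both libraries, by 1.07-fold and 1.21-fold, but the gap between their means was within the sum of their SDs.

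The medians of the classes were 81.0 CPM for multi-locus members against 11106 CPM for single-locus members in replicate 2, and 114 CPM against 11440 CPM in replicate 1. On the log2(CPM + 1) scale the multi-locus median lay 6.84 below the single-locus median in the mean of the 2 libraries, 7.08 below in replicate 2 and 6.64 below in replicate 1 (multi-locus minus single-locus -6.84, -7.08 and -6.64). The groups did not overlap in either library, in counts that leave out reads mapping to several places. Of 4 multi-locus members and 5 single-locus members no test was made, because members are not replicates.

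**Figure D2:**
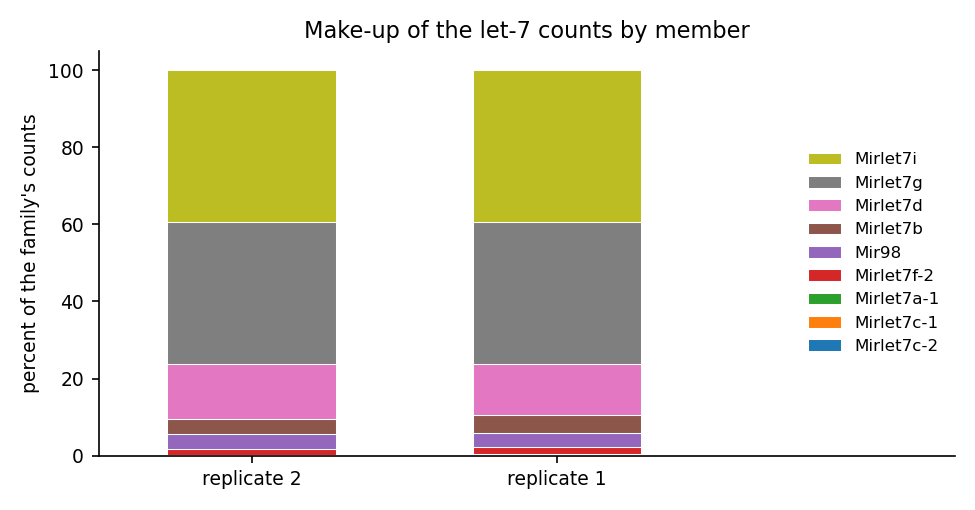
Share of each listed member in the family's own-strand counts, in percent, for replicate 2 (left bar) and replicate 1 (right bar). The largest segments are alike in the libraries, with Mirlet7i at 39.3% in both and Mirlet7g at 36.8% in both. Reads that map to several places are not included.

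The make-up of the family's counted reads was close in the 2 pups. Mirlet7i was 39.3% of the family's counts in both libraries, and Mirlet7g was 36.8% in both. Mirlet7d was 14.4% in replicate 2 and 13.2% in replicate 1. Mirlet7b was 3.99% in replicate 2 and 4.67% in replicate 1, and Mir98 was 3.73% and 3.87%. Mirlet7f-2 was 1.51% in replicate 2 and 1.74% in replicate 1. Each of the let-7a and let-7c members was at most 0.136% of the family in either library.

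Neighbouring miRNA genes on 1 strand are often cut from a shared primary transcript, so members were compared with such neighbours. All 4 listed multi-locus members have another listed miRNA gene on the same strand within 10 kb, and each was lower than it in both libraries. Every such neighbour is single-locus, so these comparisons repeat the split above. They rest on counts without reads that map to several places, and whether the RNAs themselves differ as much was not tested. Mirlet7a-1 and Mirlet7d lie in exons of the same non-coding gene, 2064 bases apart, and Mirlet7a-1 had 0.738% of the level of Mirlet7d in replicate 2 and 1.03% in replicate 1. Mirlet7c-2 lies 621 bases from Mirlet7b and had 2.17% of its level in replicate 2 and 2.71% in replicate 1. Mirlet7c-1 lies 656 bases from Mir99a, a miRNA of another seed family, and had 0.241% of its level in replicate 2 and 0.277% in replicate 1.

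The Huwe1 pair was much closer. Mirlet7f-2 lies 785 bases from Mir98 and had 40.3% of its level in replicate 2 and 44.9% in replicate 1. On the log2 scale the distance to the neighbour was -1.23 for Mirlet7f-2, -5.33 for Mirlet7c-2, -6.82 for Mirlet7a-1 and -8.58 for Mirlet7c-1, each from the mean CPM of the 2 libraries, with SDs between the libraries of 0.11 to 0.34.

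**Figure D3:**
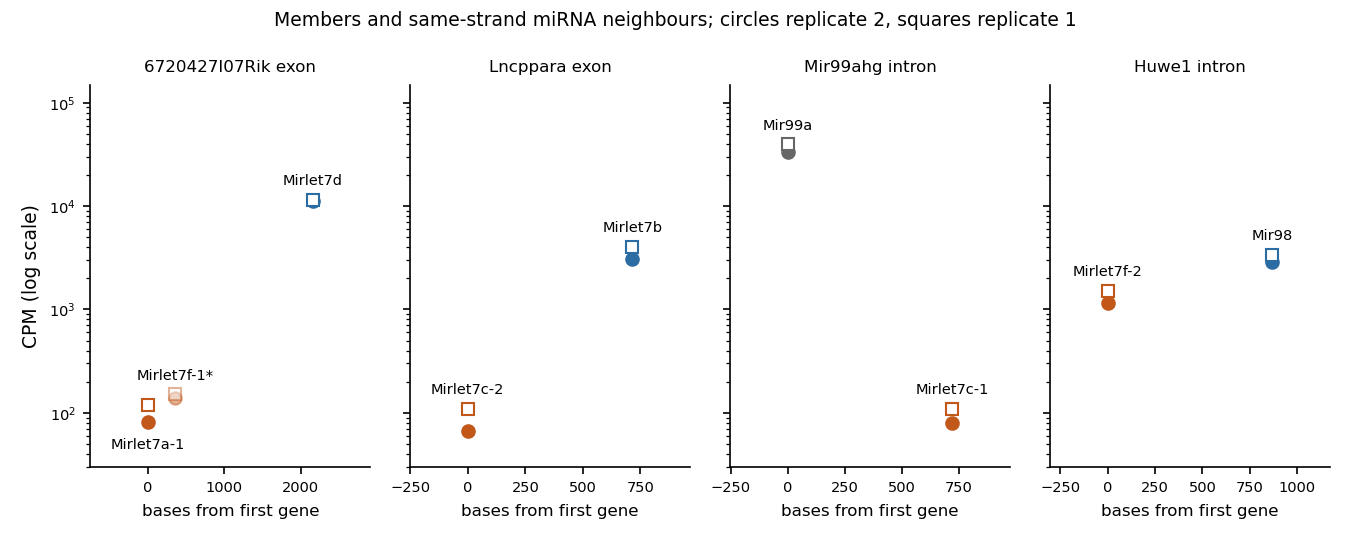
Level of members and their same-strand miRNA neighbours in CPM on a log axis, against the distance in bases from the first gene along the transcribed strand, for the 4 host genes; circles are replicate 2 and squares replicate 1. In each panel the multi-locus gene (orange) lies below its single-locus neighbour (blue, or grey for Mir99a), least so in Huwe1. Reads that map to several places are not included. Mirlet7f-1, marked with an asterisk and drawn pale, stands for reads opposite a listed gene, at 139 CPM in replicate 2 and 152 CPM in replicate 1.

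Mirlet7f-1, the named gene without a row, lies between Mirlet7a-1 and Mirlet7d on chromosome 13 (48537829 to 48537917, minus strand). A listed miRNA gene on the plus strand, Gm24111 (48537825 to 48537921), covers all 89 of its bases. No reads were counted on the strand of Gm24111 in either library, while 714 reads in replicate 2 and 569 in replicate 1 lay opposite to it, on the strand of Mirlet7f-1. Which column holds which strand was read from the layout of the tables, since they carry no header. Scaled by the own-strand totals these were 139 CPM in replicate 2 and 152 CPM in replicate 1, which is 1.70 and 1.29 times the level of Mirlet7a-1 next to it. The 9 listed members themselves had 3 reads on the opposite strand in replicate 2 and 0 in replicate 1, against 396818 and 326051 on their own strand.

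The place of Mirlet7f-1 was thus near Mirlet7a-1 and far below Mirlet7d, with log2 ratios to Mirlet7d of -6.32 in replicate 2 and -6.24 in replicate 1. The other let-7f locus, Mirlet7f-2, stood at 1335 ± 243 CPM (SD, n = 2) against 145 ± 8.81 CPM here, 8.37-fold higher in replicate 2 and 9.94-fold higher in replicate 1. Mirlet7e, which belongs to the mir-99 and mir-125 clusters, was likewise not listed and overlaps Gm25927 on the other strand, where 9568 opposite-strand reads in replicate 2 and 7916 in replicate 1 were counted.

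In the counts given, the host genes did not sort the levels. The 3 members in introns of protein-coding genes ranged from 1335 CPM (Mirlet7f-2) to 30200 CPM (Mirlet7g). The 5 members in exons of non-coding genes or the pseudogene ranged from 88.5 CPM (Mirlet7c-2) to 32280 CPM (Mirlet7i). Mirlet7c-1 was the 1 member in an intron of a non-coding gene. Mirlet7f-2, Mirlet7c-2 and Mirlet7c-1 are multi-locus, and their rows leave out reads that map to several places. The low ends of both ranges therefore cannot be read as levels set by the host. The host transcripts themselves were not measured in these libraries, so a member could not be set against its host RNA.

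The split between 1 and several loci was then looked at over all listed genes. Here too the counts leave out reads that map to several places. A RefSeq mature sequence was matched to 1142 listed genes, of which 332 had a mature sequence, from either arm, found in a second miRNA gene elsewhere. Of these multi-locus genes 13.0% had at least 10 counts in both libraries, against 29.9% of the 810 single-locus genes. Among genes that passed, the median was 74.1 CPM for 43 multi-locus genes and 309 CPM for 242 single-locus genes. None of the multi-locus genes reached 10000 CPM, while 21 single-locus genes did, Mirlet7i, Mirlet7g and Mirlet7d among them.

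Mirlet7f-2, at 1335 CPM, was the highest of all listed multi-locus genes, and the highest outside let-7 had 910 CPM. The let-7 members Mirlet7a-1, Mirlet7c-1 and Mirlet7c-2 (88.5 to 99.9 CPM) lay above the median of their class, which was 74.1 CPM with the let-7 members and 34.0 CPM without them. All 5 single-locus members were above the upper quartile of the single-locus genes, 1848 CPM. Multi-locus over single-locus, the log2 ratio of the medians was -2.06 over all genes that passed (74.1 against 309 CPM) and wider without the let-7 members (34.0 against 273 CPM, a log2 ratio of -3.004), beside the difference of -6.84 for the let-7 members, all of them descriptions of 2 libraries.

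**Figure D4:**
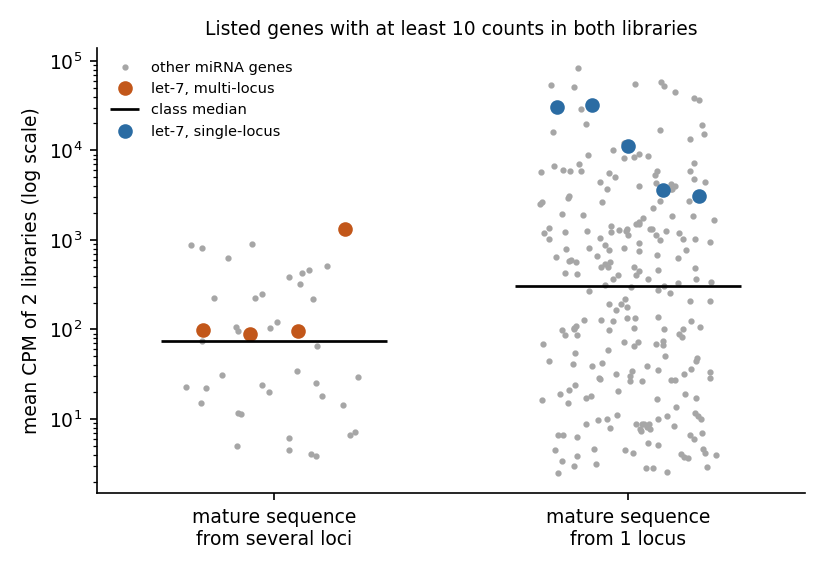
Mean CPM of the 2 libraries, on a log axis, for listed genes with at least 10 counts in both, split by whether a mature sequence comes from several loci (left) or from 1 (right); grey points are other miRNA genes, coloured points let-7 members and black lines class medians (74.1 and 309 CPM). Mirlet7f-2 is the top point of the multi-locus class, and the 5 single-locus let-7 members lie in the upper part of theirs.

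The 2 libraries were compared member by member as log2 ratios of replicate 2 over replicate 1, scaled with edgeR's TMM factors. The exact two-sided binomial test used here compares 2 libraries beyond counting error and says nothing of conditions. Of the 9 members, 0 differed by at least 2-fold with an adjusted p under 0.05, a rule that 5.09% of the 373 genes tested passed. Without the 2-fold minimum 9 of 9 passed, against 49.1% of genes tested. In that sense 8 members were lower in replicate 2 (23.3% of genes tested) and 1 was higher (25.7%). Passing without a fold minimum depends on depth, and every member had a mean of at least 88.5 CPM. Of the 203 genes tested with a mean of at least 50 CPM, 68 were lower and 87 higher in the same sense.

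The sizes were small for the abundant members. Mirlet7i had a log2 ratio of -0.036 (95% interval -0.047 to -0.026, adjusted p = 8.17e-11, exact binomial test with Benjamini-Hochberg adjustment) and Mirlet7g -0.038 (-0.049 to -0.027). Mirlet7d was the member higher in replicate 2, by 0.089 (0.071 to 0.11), a direction that turned to -0.043 under total-count scaling. Mir98 had -0.087 (-0.12 to -0.053). Mirlet7b stood apart from the other single-locus members at -0.26 (-0.30 to -0.23, adjusted p = 1.94e-57, exact binomial test).

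The multi-locus members had ratios like that of Mirlet7b or lower. Mirlet7f-2 had -0.24 (-0.29 to -0.19) and Mirlet7c-1 -0.33 (-0.53 to -0.13). Mirlet7a-1 had -0.39 (-0.59 to -0.19) and Mirlet7c-2 -0.58 (-0.79 to -0.37). The median was -0.36 for the 4 multi-locus members and -0.038 for the 5 single-locus members, beside 0.0059 for all genes tested. Over all 9 members it was -0.24. Total-count scaling moved the median of all genes to -0.13, and those of the multi-locus and single-locus members to -0.49 and -0.17.

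Marker lists of other tissues differed between the libraries to unequal degrees. Of all 373 genes tested, 5.09% passed the 2-fold rule in either direction. Beyond counting error, 23.3% were lower and 25.7% higher in replicate 2. The 7 epithelial and skin genes summed to 230 CPM in replicate 2 and 5688 CPM in replicate 1, all 7 lower in replicate 2 by at least 2-fold (median log2 ratio -4.13), and none at 0. The cartilage gene Mir140 had 966 CPM in replicate 2 and 6539 CPM in replicate 1, a log2 ratio of -2.63. The other lists had no gene past 2-fold. The 3 blood genes summed to 635 CPM in replicate 2 and 921 CPM in replicate 1, with 2 lower and 1 higher in replicate 2 beyond counting error. The 6 fibroblast and smooth muscle genes summed to 41891 CPM in replicate 2 and 45400 CPM in replicate 1, with 3 lower and 1 higher and a median log2 ratio of -0.17. The endothelial gene Mir126a had a log2 ratio of -0.026 (36558 CPM in replicate 2 and 40785 CPM in replicate 1). None of these genes was at 0. The muscle list ran the other way, with 5 of 7 genes higher in replicate 2 beyond counting error and a median log2 ratio of 0.35. The part of tissue make-up in the let-7 ratios was not tested. In bulk tissue, fewer cells of a type and less RNA per cell cannot be told apart.

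**Figure D5:**
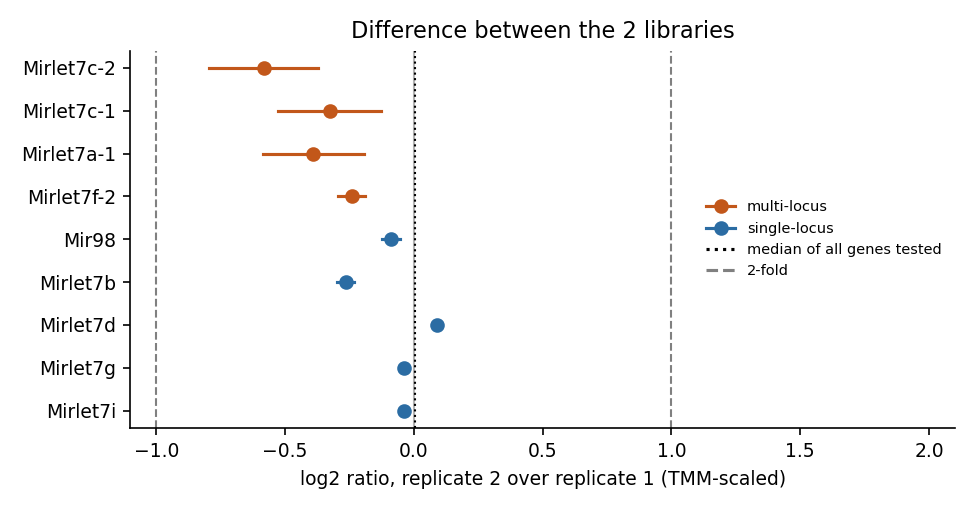
Log2 ratio of replicate 2 over replicate 1 for each member with its exact 95% interval for counting error (lines), after TMM scaling; orange is multi-locus and blue single-locus, the dotted line is the median of all 373 genes tested (0.0059) and dashed lines mark 2-fold. All 9 intervals lie between the 2-fold lines, and Mirlet7d alone lies above 0, which does not hold under total-count scaling (-0.043).

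Other genes of the let-7 clusters were taken from a list of 8, the mir-99, mir-100 and mir-125 genes with Mirlet7e and Mirlet7a-2, of which 7 were listed. Mir99a, the neighbour of Mirlet7c-1, was the highest of them at 33239 CPM in replicate 2 and 39653 CPM in replicate 1. Between the libraries 5 of the 7 were lower in replicate 2 beyond counting error (23.3% of genes tested), 1 (Mir99b) was higher (25.7%), 0 reached 2-fold (5.09%), and the median log2 ratio was -0.12. Mir125b-1, a relative of worm lin-4, did not pass the test (306 CPM in replicate 2 and 331 CPM in replicate 1).

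Outside the 10 named members, the seed GAGGUAG is also carried by the let-7a gene Mirlet7a-2, by Mirlet7e, and by Mir7k and Mir1961. Mir7k and Mir1961 had 0 counts in replicate 2 and in replicate 1, which allows up to 0.584 and 0.799 CPM (3 counts). Mir7j, named let-7j although its seed differs, had 207 counts (40.3 CPM) in replicate 2 and 140 counts (37.3 CPM) in replicate 1.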

How the data were processed

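The authors deposited whole-number read counts per miRNA gene, 1 table per library, on build mm10 (GENCODE M4), per the description file deposited with each table. The alignment and counting programs are not given in the sources used here. The tables have 3 count columns without a header, and the first equals the sum of the others. The second was read as own-strand reads from the layout and totals. The 4 leading lines name no gene and stayed out of library sizes. In replicates 2 and 1 they held 29.9% and 30.2% multimapping, 10.1% and 9.66% unmapped, and 8.44% and 7.56% reads without a gene, as percentages of all reads.

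Gene IDs were matched to GENCODE M21, which uses this build, for 1894 of 1973 genes; the other 79 had at most 1 count. Mature and hairpin sequences are from RefSeq (GRCm38.p6). Own-strand counts were scaled to CPM. Library ratios used TMM factors (edgeR 4.0.16, R 4.3.3) and a pseudocount of 0.5. Genes with at least 10 counts in total entered exact binomial tests (scipy 1.17.1), adjusted over all of them at 0.05. The test was tested on simulated data. These held counting error only, so they do not show how the test does with other differences between libraries. With 1 group there are no residual degrees of freedom for a condition. Reads carry no molecular identifiers here, so intervals cover counting error only. Replicates are littermates, and mean ± SD over 2 libraries is imprecise. Alternatives were DESeq2 1.42.0 size factors, total counts, other denominators, filters, pseudocounts, windows, and each library alone. The members and gene lists were chosen with earlier results of these data known. Named genes were all members, their same-strand neighbours within 10 kb, their host genes, the cluster list and the marker lists; Mir7j, Mir7k and Mir1961 were added after their values were seen, chosen by seed or name.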

Additional observations from a re-analysis of the deposited data

Results flagged for a closer look

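Opposite-strand reads were left out of the levels above. At the places of 2 let-7 genes they exceeded 3 counts, the upper limit for a count of 0. At the place of Mirlet7f-1 they averaged 145 CPM, from 714 reads in replicate 2 and 569 in replicate 1. At the place of Mirlet7e they averaged 1986 CPM, from 9568 reads in replicate 2 and 7916 in replicate 1. The listed genes there, Gm24111 and Gm25927, had 0 own-strand counts in both libraries.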

How the results depend on the processing

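The family's share of 8.21% moved by more than its SD under 3 alternatives, to 7.33% with both strands counted, 4.28% of all reads and 8.95% of counts without Mir206; either library alone gave 7.73% to 8.68%, and crediting Mirlet7f-1 and Mirlet7e with opposite-strand reads gave 8.40%. The multi-locus minus single-locus difference of -6.84 moved to -5.82 with means and to -5.31 as a ratio of mean CPM per member, and was -7.08 to -6.64 in single libraries. It was -6.84 when members were split by a shared stretch of 20 bases. The median log2 ratio of -0.24 moved to -0.37 with total counts and to -0.038 without multi-locus members. The count of members called at 2-fold was 0 under every scaling, filter and strand setting run, and 9 without the fold minimum. The other 43 values stayed within their spread or count. Some of them were bound to, since for a mean of 2 libraries either library alone always lies within the SD. The other windows held the same neighbours and so gave the same values. No paired analysis was possible because the labels hold a single group. Among the members, counting error was widest for the let-7a and let-7c loci, at 344 to 442 counts per library. Reads that map to several places are absent from the multi-locus rows at any depth.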
